A study of Mus musculus and Homo sapiens with 22 samples.

Results

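The genes described here encode the respiratory chain of mitochondria as far as the cell nucleus supplies it. They were chosen by symbol as protein-coding mouse genes whose names start with Nduf, Uqcr, Cox4, Cox5, Cox6, Cox7, Cox8 or Atp5, together with Sdha, Sdhb, Sdhc, Sdhd and Cycs. The rule found 95 gene entries among the 56196 genes of the count files: 36 of complex I, 4 of complex II, 8 of complex III, 20 of complex IV, 18 of ATP synthase, cytochrome c, and 8 Ndufaf genes. The last group encodes factors that assemble complex I and do not stay in it, so the symbols take in more than subunits, and these genes are described apart. All other genes were grouped by symbol alone and are counted with the subunits. Atp5o has a second entry that overlaps it in exons on the same strand and held no counts. Whether this overlap lowered the counts of either entry was not tested.

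As background, complexes I and II pass electrons from NADH and succinate to ubiquinone, complex III passes them to cytochrome c, and complex IV passes them to oxygen. Complexes I, III and IV pump protons across the inner mitochondrial membrane, and ATP synthase (complex V) uses the gradient to make ATP. Most subunits are encoded in the nucleus and imported, while a few core subunits are encoded by mitochondrial DNA. Heart muscle is rich in these complexes and uses its own isoforms of some subunits, such as Cox6a2, Cox7a1 and Cox8b. N6-methyladenosine (m6A) is a methyl mark on adenosines of mRNA, set mainly by METTL3 at DRACH motifs (D is A, G or T, R is A or G, H is A, C or T), often near stop codons and in long exons.

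Gene counts came from poly(A)+ RNA of mouse embryonic stem cells (mESCs), with 3 wildtype (WT) and 3 Mettl3 knockout (KO) libraries, both without treatment. Sites of m6A came from miCLIP2, in which RNA is crosslinked to an anti-m6A antibody and sites are read at single-nucleotide resolution. One list covers WT mESCs, made over replicates, and 4 cover purchased poly(A)+ RNA of mouse heart at inputs of 1 µg, 300 ng, 100 ng and 50 ng, with 1 library each (the sample titles print µg for all inputs). The KO and WT cells were taken from an earlier study, and whether the KO is 1 clone, and the age and number of the mice behind the heart RNA, are not given in the sources used here.

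The libraries held 22746733 to 27254245 gene counts. The Mettl3 gene itself held 560, 698 and 612 counts in the WT libraries and 462, 669 and 457 in those of KO, and counts over the whole gene do not test a deletion of part of it. The Y-linked gene Eif2s3y had 0 counts in each WT library and 1458, 1791 and 1669 in KO, so both lines also differ in this respect. The 10 pluripotency markers were all detected, with a summed level of 5173 to 5632 CPM (counts scaled to one total for all libraries) in WT and 3701 to 3784 in KO. Of the 10, 7 were lower in KO and 3 higher. The mean CPM fell most for Tdgf1 (903 in WT, 229 in KO) and Dppa5a (957 and 298). It hardly changed for Sox2 (370 and 373) and rose for Esrrb (527 and 709). The 15 markers of feeder fibroblasts summed to 12.9 to 19.1 CPM in WT and 30.4 to 35.6 in KO, with 5 of them at no more than 3 counts in every library. Of the 15, 6 had enough counts to be tested, and 4 were higher in KO and 2 lower. The mean CPM rose most for Fbn1 (2.02 in WT, 11.7 in KO) and Col5a2 (0.328 and 5.90). It fell for Pdgfrb (7.56 and 4.10) and Col1a1 (1.15 and 0.658). Of 12 cardiomyocyte markers, 7 carried sites in the 1 µg heart list and 1 did in the mESC list. The part of these differences in the changes below was not tested.

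The m6A sites of 3 genes are shown first, because these were the genes of the respiratory chain called higher in the KO without the replicate block (described below). Each stretch is 21 nt of GRCm38, 5′ to 3′ on the strand of the gene. The adenosine of the predicted site is in the centre, with the 5-nt motif around it in capitals. Sites are predictions of a classifier. In the mESC list their scores ran from 0.50 to 1 over protein-coding genes, with a median of 0.75. Ndufaf4 had 5 mESC sites, all in its last exon, exon 3 of 3, and the first one below had a low score of 0.54.

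Ndufaf4 (chr4:24901760-24901780, plus strand): aatatcacGGACAttcccaaa
Ndufaf4 (chr4:24901818-24901838, plus strand): ataaccatAAACTctctccag
Ndufaf4 (chr4:24901837-24901857, plus strand): agaaacatGGACTgctgagaa
Ndufaf4 (chr4:24901872-24901892, plus strand): actatttaGAACTgaaggatg
Ndufaf4 (chr4:24903070-24903090, plus strand): tttcaaaaGGACAgaatggag

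The first 4 of these lay in the coding sequence, 202 to 90 nt before its last base (stop codon not counted), and the fifth lay 1108 nt after it in the 3′ UTR. Ndufaf1 had 4 mESC sites in its exon 2 of 5, all in the coding sequence, and this exon was 658 nt long.

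Ndufaf1 (chr2:119660069-119660089, minus strand): gctttatgGAACTctgagctc
Ndufaf1 (chr2:119660382-119660402, minus strand): gcttacaaGGACAtgaccaca
Ndufaf1 (chr2:119660402-119660422, minus strand): gcagggaaAGACTgaagaggg
Ndufaf1 (chr2:119660435-119660455, minus strand): gaaaaaagTGACTtctgttga

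Uqcrfs1, which encodes the Rieske iron-sulfur protein of complex III, had 3 mESC sites in exon 2 of 2. One lay 12 nt past the last coding base and 2 lay in the coding sequence. The last one below had no DRACH motif and a low score of 0.52.

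Uqcrfs1 (chr13:30540712-30540732, minus strand): agacacgtGGACTcagggcct
Uqcrfs1 (chr13:30541055-30541075, minus strand): gaagggaaGAACAtggctttt
Uqcrfs1 (chr13:30541108-30541128, minus strand): ctgctgacGTACTggccatgt

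Cox7a2l (a relative of Cox7a2 that takes part in joining complexes III and IV) and Sdha (the flavoprotein of complex II) had as many mESC sites as Uqcrfs1, and are shown because they were not called higher. The Cox7a2l sites lay in the 3′ UTR, and one of them had no DRACH motif and a low score of 0.53. Those of Sdha lay in exons 8, 12 and 15 of 15, and the one in exon 12 had a low score of 0.56.

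Cox7a2l (chr17:83502282-83502302, minus strand): gggcctcgGGACTcaggcggt
Cox7a2l (chr17:83502342-83502362, minus strand): atttccctGGAGTtctgcagg
Cox7a2l (chr17:83502407-83502427, minus strand): gacagttaAAACTattgttta
Sdha (chr13:74322403-74322423, minus strand): atcagtctGGACTgtataaga
Sdha (chr13:74327249-74327269, minus strand): gcatctaaAGACAttcgacag
Sdha (chr13:74333069-74333089, minus strand): gttgccaaGGACCtggcatca

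In WT mESCs, the respiratory chain genes took 0.890%, 1.04% and 0.878% of gene counts in the 3 libraries, and in KO they took 0.825%, 0.801% and 0.845%. The ranges did not overlap, and the share was 0.938 ± 0.0926% (SD, n = 3) in WT and 0.824 ± 0.0223% in KO. WT replicate 2 had the highest share, and the difference of -0.114 percentage points became -0.0606 without it. Levels between genes were compared as CPM per kilobase of all annotated exons of the gene, which understates genes with long exons that few transcripts use. On this scale Atp5b, the catalytic beta subunit of ATP synthase, was at 451 ± 18.4 CPM per kb in WT (SD, n = 3). It was followed by Cox8a at 330 ± 45.3, Cox6a1 at 265 ± 27.4, Cox4i1 at 260 ± 8.49 and Cox6b1 at 229 ± 15.7, all of complex IV, and by the ATP synthase gamma subunit Atp5c1 at 190 ± 13.0. The order of Cox6a1, Cox4i1 and Cox6b1 was not clear of their spread, whereas Atp5b stood above the other genes by more than its own.

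Among isoform families, one member held most of the level in mESCs. Cox4i1 stood at 260 CPM per kb against 2.32 ± 0.483 for Cox4i2, the isoform known from lung and low oxygen. Cox6a1 and Cox8a had far higher levels than the muscle isoforms Cox6a2 and Cox8b, which had 2 to 10 and 0 to 4 counts per library, and than the testis isoform Cox8c with 2 to 9 counts. Other tissue isoforms were well detected in mESCs. The muscle isoform Cox7a1 was at 30.4 ± 3.05 CPM per kb beside 147 ± 11.8 for Cox7a2, and the testis isoform Cox6b2 was at 49.1 ± 18.6 beside 229 for Cox6b1. Ndufa4l2, a relative of the complex IV subunit Ndufa4 known for its induction by low oxygen, was at 40.6 ± 5.69 beside 106 ± 7.19. Of the 3 genes for the c subunit of ATP synthase, Atp5g3 was at 84.3 ± 11.0, Atp5g2 at 31.5 ± 4.19 and Atp5g1 at 11.0 ± 1.46. Without division by exon length, Atp5g2 and Atp5g1 had similar WT means of 52.7 and 54.0 CPM. Of stretches as long as the reads (84 nt), 87.8% of Atp5g2 and 22.6% of Atp5g1 occurred elsewhere on the chromosomes, and 0% of Atp5g3.

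Several essential subunits had almost no counts in any library. Ndufs3, a core subunit of complex I, had 1 count in all, Uqcrc1, a core subunit of complex III, had at most 2 counts per library, and so had Atp5a1, the alpha subunit of ATP synthase. For these 3 genes, 100% of the 84-nt stretches within exons (the length of the reads) occurred a further time on a fix patch, a corrected piece of the reference strain that GRCm38.p6 carries beside the chromosomes. The same held beyond the respiratory chain. Of 285 protein-coding genes with a copy on such a patch, 87.7% had no more than 3 counts in every library, against 29.4% of all 21899 protein-coding genes. Whether these copies set the counts was not tested, the counts are not read as levels, and neither Ndufs3, Uqcrc1 nor Atp5a1 held a site in any list. Copies elsewhere on the chromosomes touched 30 of the 95 genes, among them Atp5g2, where 12.2% of stretches had no other copy, Cox7c with 30.6% and Ndufs5 with 58.8%. Counts of these genes leave out reads that fit more than 1 place, and their levels are uncertain to that extent.

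In the KO, log2 fold changes were below 0 for 71 of 80 tested subunit genes (with cytochrome c) and above 0 for 7 of 8 assembly factors. Over all 15731 genes tested, 8055 had values below 0. So had 2607 of 3933 genes in the top quartile of WT level and 73 of 77 genes for cytosolic ribosomal proteins. With scaling by library size only, the numbers below 0 were 65 of the 80, 7010 of all genes, 2238 of the quartile and 70 of the 77. Of 88 respiratory chain genes tested, 18 were called lower and 3 higher than in WT by edgeR's quasi-likelihood test at a Benjamini-Hochberg adjusted p of at most 0.01. Among all 15731 genes tested the call was made for 29.7%, with 12.6% lower and 17.1% higher (1982 and 2687 genes, or 1199 and 2937 with scaling by library size only). The replicate numbers were also taken to pair WT with KO libraries, although no label states a pairing. With the number as a block the counts were 37 lower and 7 higher, beside 43.5% of all genes (20% lower and 23.5% higher). With scaling by library size only, the split was 7 lower and 4 higher, and under it the median over all genes tested stood at 0.08 on the log2 scale rather than at -0.02. The median of the 88 genes was -0.28 with the main scaling and -0.18 with library size only, so it lay 0.26 below that of all genes in both.

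Genes with a high level in WT were lower in the KO more broadly. The WT libraries that set this level also enter the fold change, so genes chosen by it lean towards values below 0. The size of this effect was not tested. In the quartile of genes with the highest WT level, which holds 57 of the 88 genes, the median log2 fold change was -0.18 over all 3933 genes and -0.34 over the 57. Of the 3933 genes, 877 were called lower and 332 higher (1359 and 533 with the block, 510 and 429 with library size only). Of the 57, 12 were called lower and 1 higher (28 and 2 with the block, 3 and 2 with library size only), so lower calls made up 21.1% of them and 22.3% of the quartile. Genes for cytosolic ribosomal proteins, which are also short and highly expressed, had a median of -0.32, with 14 of 77 called lower and 0 higher (with the block, 32 lower and 1 higher). Genes for mitochondrial ribosomal proteins had a median of 0.20, with 4 of 75 called lower and 20 higher (0 and 27 with library size only). The CPM ranges of the libraries did not overlap between WT and KO for 55 of the 88 genes (48 lower, 7 higher), and for 56.1% of all genes (26.9% lower, 29.2% higher).

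**Figure D1:**
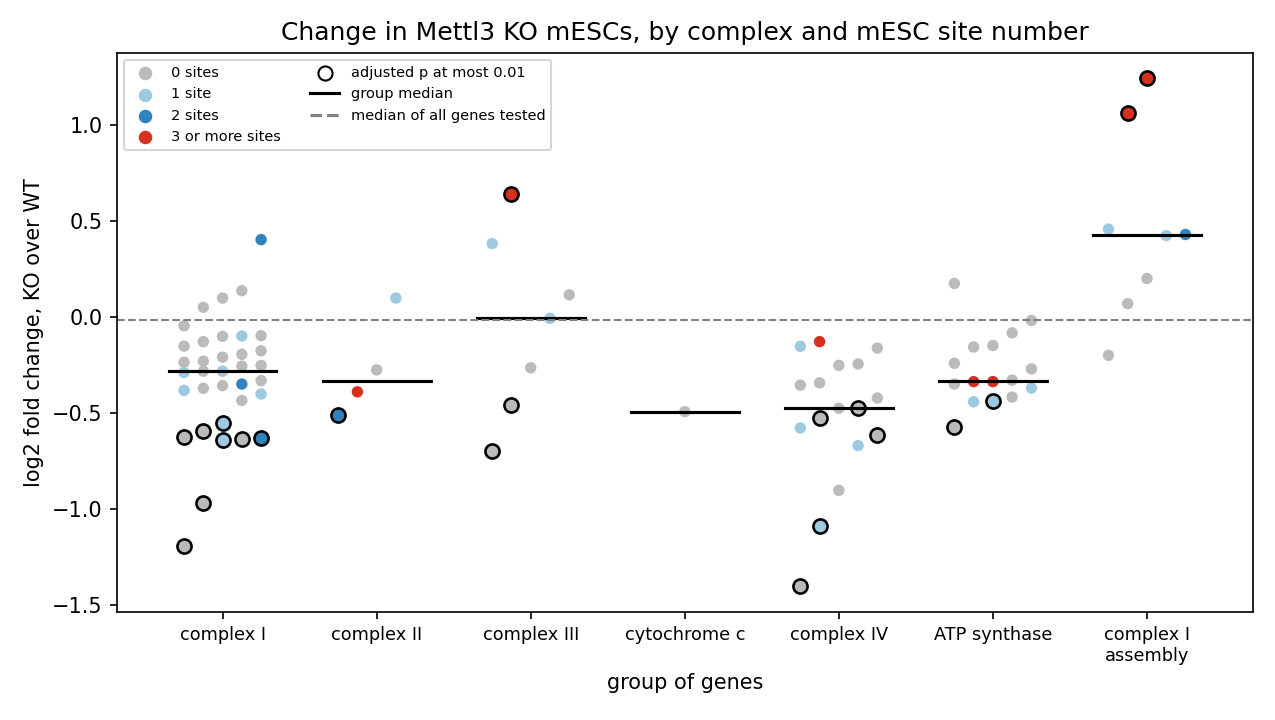
Log2 fold change of each of 88 genes in Mettl3 KO over WT mESCs (vertical axis), by complex (horizontal axis), coloured by the number of exonic m6A sites in the mESC list. Black outlines mark an adjusted p of at most 0.01, black bars are group medians and the dashed line is the median of all 15731 genes tested. The 3 outlined genes above the dashed line each have 3 or more sites, and complex IV lies below the line throughout.

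By complex, complex IV had a median log2 fold change of -0.47, and all 17 of its genes tested had values below 0, also with both other scalings. Of these, 5 were called lower (10 with the block, 1 with library size only). Complex I had a median of -0.28, with 8 of 35 genes called lower and 0 higher (15 lower and 1 higher with the block). ATP synthase had a median of -0.33 with 2 of 16 called lower (7 with the block, 0 with library size only), and complex II one of -0.33 with 1 of 4 called lower (2 with the block, 0 with library size only). Complex III was split, with 2 of 7 genes called lower and 1 higher (2 and 2 with the block, 1 and 2 with library size only), and its median of -0.01 turned to 0.10 with scaling by library size. The 8 assembly factors had a median of 0.43, and 7 had values above 0 under all 3 scalings, but 2 of them were called higher (4 with the block). In the single libraries, the median log2 ratio to the WT mean (0.5 CPM added) was -0.27, -0.43 and -0.25 in the 3 KO libraries over the 80 other genes, and 0.44, 0.33 and 0.47 over the assembly factors. Both groups lay apart from their own 3 WT libraries in every KO library.

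**Figure D2:**
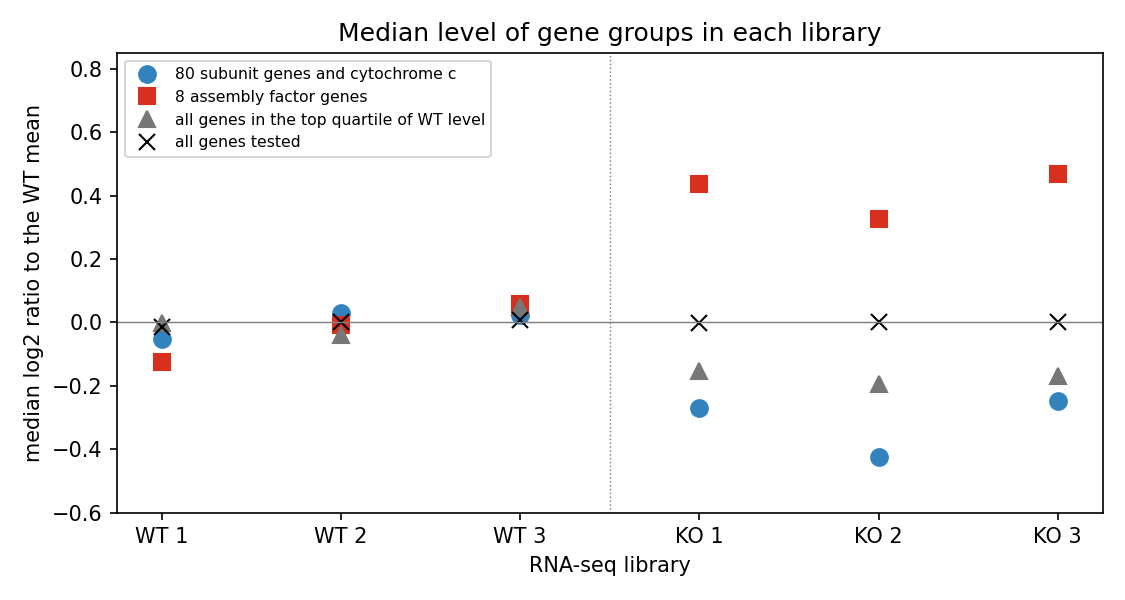
Median log2 ratio of the level to the WT mean (vertical axis) in each of the 6 RNA-seq libraries (horizontal axis) for 80 subunit genes with cytochrome c, 8 assembly factor genes, the top quartile of WT level and all genes tested. In the KO libraries the assembly factors lie at 0.33 to 0.47 and the subunits at -0.43 to -0.25, with the top quartile between them at -0.19 to -0.15.

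Both assembly factors called higher roughly doubled. Ndufaf1, which helps to build the membrane arm of complex I, had 19.5, 22.5 and 22.1 CPM in WT and 47.8, 47.8 and 56.2 in KO. The groups did not overlap, and the log2 fold change was 1.24 ± 0.12 (SE, edgeR adjusted p = 4.56e-05). Ndufaf4, another complex I assembly factor, had 26.0, 26.1 and 25.8 CPM in WT and 51.1, 49.8 and 61.6 in KO. Its 3 WT libraries were close together and all KO libraries stood above them, with a log2 fold change of 1.06 ± 0.12 (edgeR adjusted p = 9.19e-05). Ndufaf7, a methyltransferase that acts on complex I, had 25.1, 31.3 and 27.5 CPM in WT and 38.5, 36.1 and 38.6 in KO. Its ranges did not overlap, but the log2 fold change of 0.43 ± 0.12 missed the threshold (edgeR adjusted p = 0.0136, and 0.00414 with the block).

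The third gene called higher was a subunit. Uqcrfs1 had 83.2, 79.0 and 88.7 CPM in WT and 137, 119 and 134 in KO, so all KO libraries lay above all WT libraries. Its log2 fold change was 0.64 ± 0.10 (edgeR adjusted p = 0.00082). Uqcr10, a small subunit of the same complex, had 89.4, 85.5 and 90.0 CPM in WT and 119, 101 and 126 in KO, with a log2 fold change of 0.38 ± 0.11 that missed the threshold and passed with the block (edgeR adjusted p = 0.0165, and 0.00314 with the block). Ndufa2, an accessory subunit of complex I, stood at 25.5, 27.7 and 33.2 CPM in WT and 40.0, 32.9 and 41.2 in KO. These ranges overlapped, and its log2 fold change of 0.40 ± 0.14 also missed it and passed with the block (edgeR adjusted p = 0.0354, and 0.00683 with the block).

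The lowest values among called genes with at least 100 counts on average belonged to small accessory subunits and to Ndufa4l2, the relative of Ndufa4. Ndufs5, of complex I, had 10.3, 9.22 and 10.6 CPM in WT and 4.82, 3.85 and 4.54 in KO, with a log2 fold change of -1.19 ± 0.18 (edgeR adjusted p = 0.000588). Ndufa4l2 had 50.0, 37.7 and 45.6 CPM in WT and 23.6, 16.1 and 23.1 in KO, with -1.09 ± 0.17 (edgeR adjusted p = 0.0006). In both genes every KO library lay well below every WT library. Ndufb7, a complex I subunit on the intermembrane side, had 55.2, 71.5 and 68.3 CPM in WT and 32.4, 34.8 and 32.5 in KO, with -0.97 ± 0.12 (edgeR adjusted p = 0.000186). It lies on chromosome 8, where the median of all 829 genes tested was -0.44 and 287 were called lower. The 3 respiratory chain genes tested on that chromosome, Ndufb7, Ndufa13 and Cox4i1, were all called lower, and without them 15 genes were called lower and 3 higher with a median of -0.27 (34 lower and 7 higher with the block).

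Uqcrh, the hinge protein of complex III, had 129, 135 and 133 CPM in WT and 90.9, 68.8 and 84.7 in KO, with a log2 fold change of -0.70 ± 0.12 (edgeR adjusted p = 0.00105). Ndufb10, an accessory subunit of complex I, had 42.4, 44.3 and 46.3 CPM in WT and 26.6, 30.8 and 27.8 in KO, with -0.64 ± 0.11 (edgeR adjusted p = 0.00108). The WT libraries of both genes were tight and lay above the KO libraries. Ndufa5, of the matrix arm of complex I, had 23.4, 27.5 and 33.0 CPM in WT and 18.4, 17.4 and 18.2 in KO, with -0.63 ± 0.14 (edgeR adjusted p = 0.00492). Its WT libraries were more spread than its KO libraries.

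**Figure D3:**
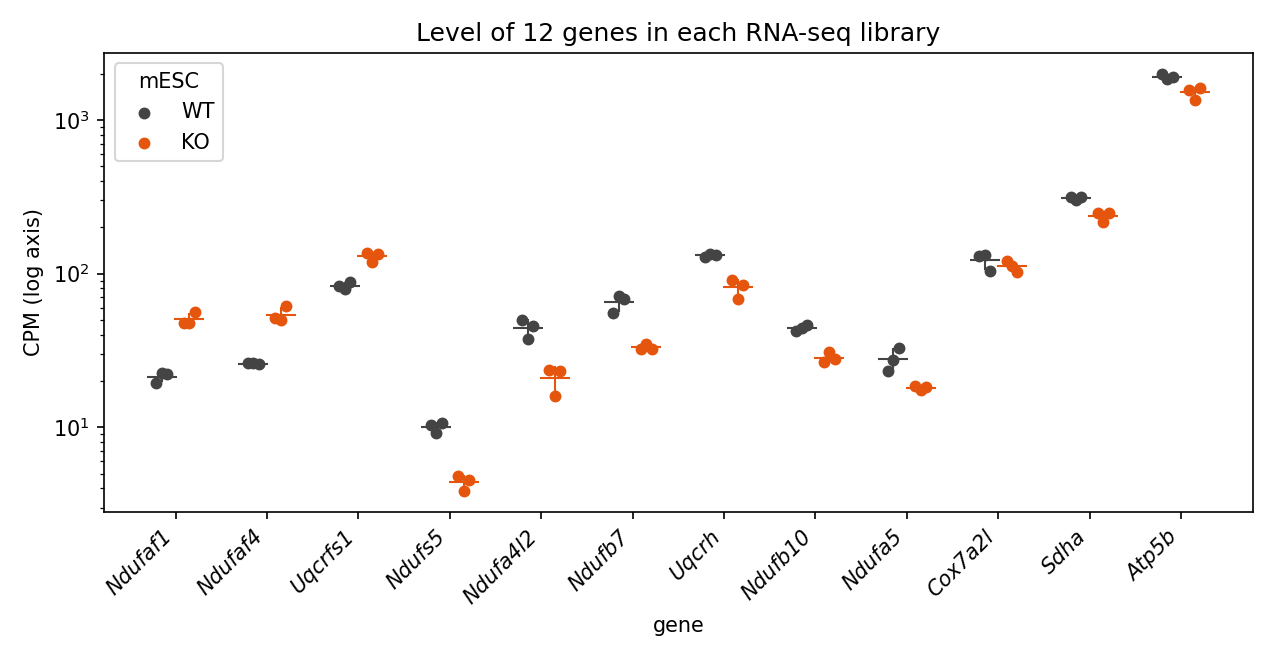
CPM of 12 genes (log axis) in each of 3 WT and 3 KO RNA-seq libraries, with horizontal ticks for means and bars for SD. The points of Ndufaf1, Ndufaf4 and Uqcrfs1 lie higher in KO, those of the 6 genes from Ndufs5 to Ndufa5 lie lower, and those of Cox7a2l overlap.

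Among the 18 genes of core subunits and cytochrome c, 15 were tested, of which 4 were called lower and 1 higher (8 lower and 1 higher with the block, 1 and 1 with library size only). The 4 were Ndufs8, which carries iron-sulfur clusters of complex I (log2 fold change -0.59 ± 0.11), Sdhb, the iron-sulfur subunit of complex II (-0.51 ± 0.10), Uqcrc2 of complex III (-0.46 ± 0.11) and Atp5c1 (-0.44 ± 0.11). Their edgeR adjusted p were 0.00162, 0.00236, 0.00716 and 0.00784. Atp5b and Sdha had values of -0.34 ± 0.13 and -0.39 ± 0.11 that missed the threshold (edgeR adjusted p = 0.0521 and 0.0126), and Sdha passed with the block at 0.00226 and both passed with DESeq2 (adjusted p = 0.00964 and 0.00184). Cycs, the mobile carrier, was at -0.49 ± 0.14 (edgeR adjusted p = 0.0166, and 0.00322 with the block). Values near 0 were found for the complex I subunits Ndufs7 (-0.05 ± 0.13) and Ndufs1 (-0.10 ± 0.14) and for the membrane anchor Sdhd of complex II (0.10 ± 0.12), and the signs of Ndufs7 and Ndufs1 turned with scaling by library size.

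Of the 19 genes in isoform families, 16 were tested and all had values below 0 under the 3 scalings. Of these, 5 were called lower (10 with the block, 1 with library size only), namely Cox4i1, Cox4i2, Cox7a2, Ndufa4 and Ndufa4l2. Cox4i1 fell by 0.52 on the log2 scale (SE 0.10) and Cox4i2 fell by 1.40 (SE 0.34), with the latter at 30 to 57 counts in WT and 13 to 23 in KO. Ndufa4 fell by 0.62 (SE 0.13) beside the fall of Ndufa4l2. Cox7a2 fell by 0.47 (SE 0.12), and its relative Cox7a1, at -0.58 ± 0.17, missed the threshold (edgeR adjusted p = 0.0179) and passed with the block (0.00185) and with DESeq2 (0.00594). Cox6b2 varied more among WT libraries (55.6, 74.4 and 33.2 CPM) than between the groups (32.3, 38.8 and 31.6 in KO), and it missed the threshold but passed with the block (edgeR adjusted p = 0.0398, and 0.00122 with the block). Cox6a1, Cox6b1 and Cox8a did not pass with or without the block.

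Other genes of the pathway were counted from lists. Of 40 tested assembly factors whose symbols lie outside the rule, 14 were called higher and 1 lower, with a median log2 fold change of 0.46 (21 higher and 3 lower with the block). The called genes that changed most were Coa7 (1.56 ± 0.15) and Tmem70 (1.54 ± 0.14), which act in building complex IV and ATP synthase, Sco2 (1.52 ± 0.23), which delivers copper to complex IV, and Sdhaf3 (1.14 ± 0.15), which helps to mature Sdhb. Their edgeR adjusted p lay between 2.98e-05 and 0.000517. Of 19 tested regulators of respiratory chain genes and of mitochondrial DNA expression, 1 was called higher and 3 lower, with a median of 0.05 (4 higher and 3 lower with the block, 1 and 0 with library size only). Of 13 subunits encoded by mitochondrial DNA, 7 were tested and 6 had at most 1 count in any library. Why these 6 had almost no counts was not tested, and their counts are not read as levels. Copies of mitochondrial genes elsewhere in the genome were not searched for, so the levels of the 7 are uncertain too. Among the 7, mt-Co1 was called lower (-0.84 ± 0.20), and mt-Cytb (1.19 ± 0.27) and mt-Nd6 (1.20 ± 0.13) were called higher (edgeR adjusted p = 0.00733, 0.00549 and 0.000102). With the block, 2 of the 7 were called lower and 4 higher, and with library size only 0 and 2. All genes of the mitochondrial genome together took 2.44% to 2.85% of gene counts in WT and 3.02% to 3.42% in KO, with the same limit.

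In the mESC list, 53 of 25456 sites lay in exons of respiratory chain genes, in 31 of the 95. Of these, 19 genes had 1 site, 5 had 2 and 7 had 3 or more, with sites counted whatever their score. After Ndufaf4 and Ndufaf1, the genes with 3 sites were Uqcrfs1, Cox7a2l, Sdha, Atp5b and Atp5d, the last being the delta subunit of ATP synthase. A site was found in 35.2% of the 88 genes tested (31 genes, Wilson 95% interval 26.1% to 45.6%) and in 47.9% of the 13354 other protein-coding genes tested. In the top quartile of WT level the shares were 36.8% (21 of 57, 25.5% to 49.8%) and 81.2%. By group, 5 of 8 assembly factors and 26 of 80 other genes tested had a site. Mitochondrial ribosomal protein genes had one in 66.7% (50 of 75) and cytosolic ribosomal protein genes in 32.5% (25 of 77).

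Respiratory chain transcripts were short. The longest coding transcript had a median length of 850 nt, with 4 exons and a last exon of 254 nt, against 2978 nt, 9 exons and 1256 nt in the other protein-coding genes tested. They held a median of 17.5 DRACH motifs against 59. Within the top quartile and under 1000 nt, 8 of 33 respiratory chain genes (24.2%) and 68 of 157 other genes (43.3%) had a site, and their intervals overlapped. From 1000 to 2000 nt it was 11 of 19 (57.9%) and 407 of 616 (66.1%), and above 2000 nt 2 of 5 and 2644 of 3067 (86.2%), where the 5 genes allow only a wide interval. For every 100 DRACH motifs in their transcripts, respiratory chain genes of the top quartile had 2.74 sites, and other genes had 4.64. Over all genes tested, both had nearly the same rate, 2.57 and 2.58.

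**Figure D4:**
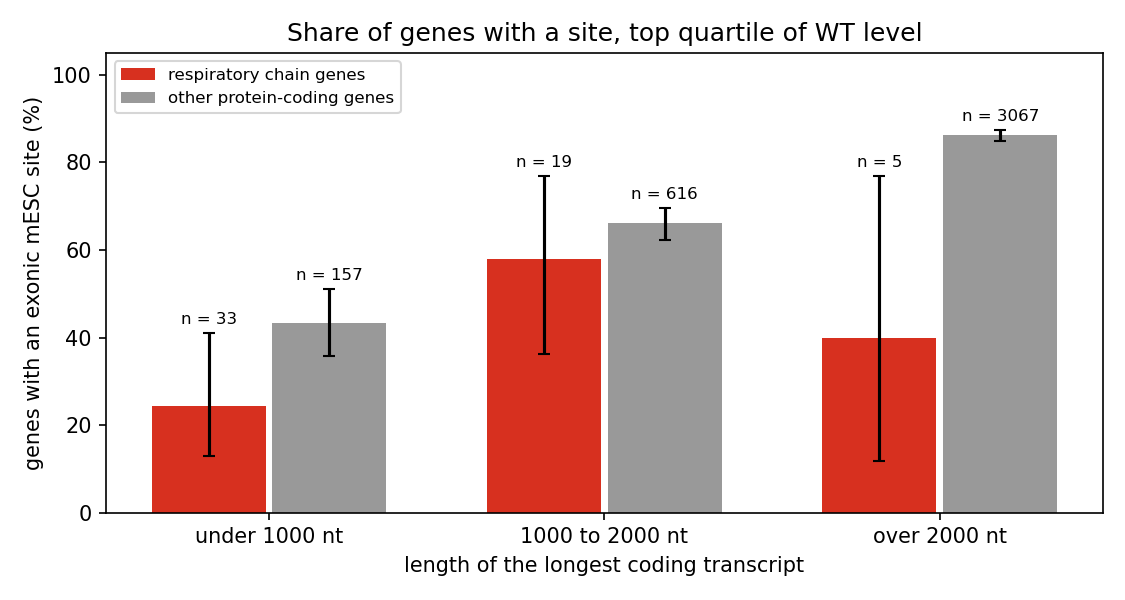
Percentage of genes with an exonic mESC site (vertical axis) by length of the longest coding transcript (horizontal axis) in the top quartile of WT level, for respiratory chain genes and other protein-coding genes. Bars are shares and error bars Wilson 95% intervals with the number of genes above. The shares of respiratory chain genes are 24.2%, 57.9% and 40%, and the intervals of both groups overlap below 2000 nt.

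Of the 53 mESC sites, 49 (92.5%) had a DRACH motif, as did 92.9% of all sites in protein-coding genes, and GGACT was the motif of 12 (22.6%, against 22.9%). In 2 of them, in Atp5b and Atp5c1, the motif was read across an exon start from the genome and may differ in the spliced mRNA. In the longest coding transcript, 33 sites lay in the coding sequence, 17 in the 3′ UTR and 2 in the 5′ UTR. The last exon held 59.6% (31 of 52 placed sites, Wilson 95% interval 46.1% to 71.8%), against 68.7% over protein-coding genes. Within 100 nt of the last coding base lay 38.5% of them (20 of 52, 26.5% to 52.0%), against 18.7% over protein-coding genes, whose transcripts are longer. Transcript region and the sequence around the site are both among the inputs of the classifier that made the list. The shares by motif and by position are therefore not independent of the classifier.

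Of the 31 genes with a mESC site, 3 were called higher in the KO and 6 lower (7 and 15 with the block). Among the 7 genes with 3 or more sites, 3 were called higher and 0 lower, with a median of -0.13. Among the 57 genes with 0 sites, 12 were called lower and 0 higher, with a median of -0.26, and among the 19 with 1 site 4 were lower and 0 higher, with -0.37. With the block, 2 of the 7 genes were called lower beside the 3 higher, as were 22 of the 57, and of the 19 genes 10 were lower and 2 higher. In the top quartile of all genes, 13.6% of those with 3 or more sites were called higher and 3.48% of those with 0, and 14.4% and 35.1% were called lower. Over all genes tested, the shares called higher were 21.4% and 16.9%, and those called lower were 11.4% and 11.2%. Across the 88 genes Spearman's rho between site number and log2 fold change was 0.11, over points that share the same 6 libraries.

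Of the 7 genes with 3 or more sites, 4 were not called higher. Cox7a2l had 130, 133 and 103 CPM in WT and 120, 111 and 103 in KO, with a log2 fold change of -0.13 ± 0.12 (edgeR adjusted p = 0.418). Atp5b had 1993, 1839 and 1897 CPM in WT and 1573, 1356 and 1607 in KO, and Atp5d had 131, 115 and 139 CPM in WT and 116, 96.2 and 93.7 in KO. The KO libraries of Atp5b lay below its WT libraries, while those of Atp5d overlapped with them. Atp5d missed the threshold and was called lower with the block (edgeR adjusted p = 0.042, and 0.00921 with the block). Sdha had 317, 300 and 316 CPM in WT and 249, 216 and 247 in KO, again without overlap. Among genes with 2 sites, Sdhb (104, 111 and 111 CPM in WT and 78.3, 70.4 and 80.2 in KO) and Ndufa13 (112, 137 and 102 in WT and 81.7, 72.5 and 72.8 in KO) were called lower. Both Ndufa13 sites had low scores (0.58 and 0.54), the latter in the 5′ UTR. The Sdhb sites had a low score of 0.53 in exon 5 and one of 0.82 in exon 7. Sites thus occurred in genes called higher, in genes called lower and in genes that passed in neither direction.

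In heart, 65 sites of the 46421 in the 1 µg list lay in 30 respiratory chain genes. Of the genes that were tested in mESCs, 33.0% had a heart site, against 57.1% of other protein-coding genes tested. Ndufaf1 led with 8 sites, followed by Ndufaf4 with 6, Uqcrfs1, Cox7a2l and Sdha with 4 each, and Atp5d and Ndufaf7 with 3 each. Of the 8 assembly factors, 7 had a heart site. Both lists placed sites in 20 genes, 11 genes had sites in the mESC list alone of these, and 10 in the heart list alone. The same position was given for 35 sites, which is 66.0% of the mESC sites and 53.8% of the 1 µg heart sites in these genes. Over all sites the shares were 59.6% and 32.7%.

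Of the 53 mESC sites in these genes, all 4 of Ndufaf1 and 4 of 5 in Ndufaf4 were also in the 1 µg heart list, as were all 3 of Uqcrfs1 and of Atp5d. Cox7a2l and Sdha shared 2 sites each. Both mESC sites of Sdhb, Ndufv3 and Ndufa13 were absent from it. The last exon held 69.8% of the heart sites (44 of 63 placed, 57.6% to 79.8%), against 71.8% over protein-coding genes, and 62 of 65 had a DRACH motif. In 3 further cases a heart site lay in an intron of a respiratory chain gene.

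The low-input lists held 25 sites in 18 respiratory chain genes at 300 ng, 14 sites in 12 genes at 100 ng and 7 sites in 7 genes at 50 ng. They made up 7 of 248 sites in the 50 ng list. These 7 genes were Uqcrfs1, Cox7a2l, Atp5d, Atp5o, Atp5j2, Ndufa2 and Cox6a2. A total of 4 sites were found in all 4 heart lists, namely those of Uqcrfs1 12 nt past the last coding base and of Cox7a2l (first of the Cox7a2l stretches above), and the following sites of Atp5o and Cox6a2, which are shown with those of Atp5d and Atp5j2 at 50 ng (the Ndufa2 site is not shown).

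Atp5o (chr16:91925264-91925284, minus strand): gctctgagAGACTgtcacctg
Cox6a2 (chr7:128206314-128206334, minus strand): acagagaaGGACAgtgccatt
Atp5d (chr10:80145567-80145587, plus strand): ccacggggAAACTgagccagg
Atp5j2 (chr5:145191521-145191541, minus strand): agttctgcGGACAccaggact

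Atp5o encodes the stalk subunit OSCP of ATP synthase, and its site lay 7 nt past the last coding base. The Cox6a2 and Atp5j2 sites lay in the 5′ UTR, and the Atp5d site lay 35 nt past the last coding base. The Atp5j2 site had a low score of 0.51 in the mESC list and lay less than 23 nt after a RefSeq transcript start. The paper reports signal at transcript starts that did not respond to the KO, and proposes that it likely reflects the related mark m6Am. Which mark the Atp5j2 site carries was not tested. Cox6a2, the heart and muscle isoform, had its site in each heart list and none in mESCs, where its counts were at most 10. The Atp5j2 site was in the mESC list and in the 300 ng and 50 ng heart lists, but not in those of 100 ng and 1 µg. Of the sites in these genes, 21 of 25 at 300 ng, 13 of 14 at 100 ng and 6 of 7 at 50 ng were also in the 1 µg list. Over all sites of these lists, the shares shared with the 1 µg list were 93.4%, 96.2% and 95.6%. At each input there was 1 library, so the spread between libraries is not known, and why a site was missing from a list was not tested.

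**Figure D5:**
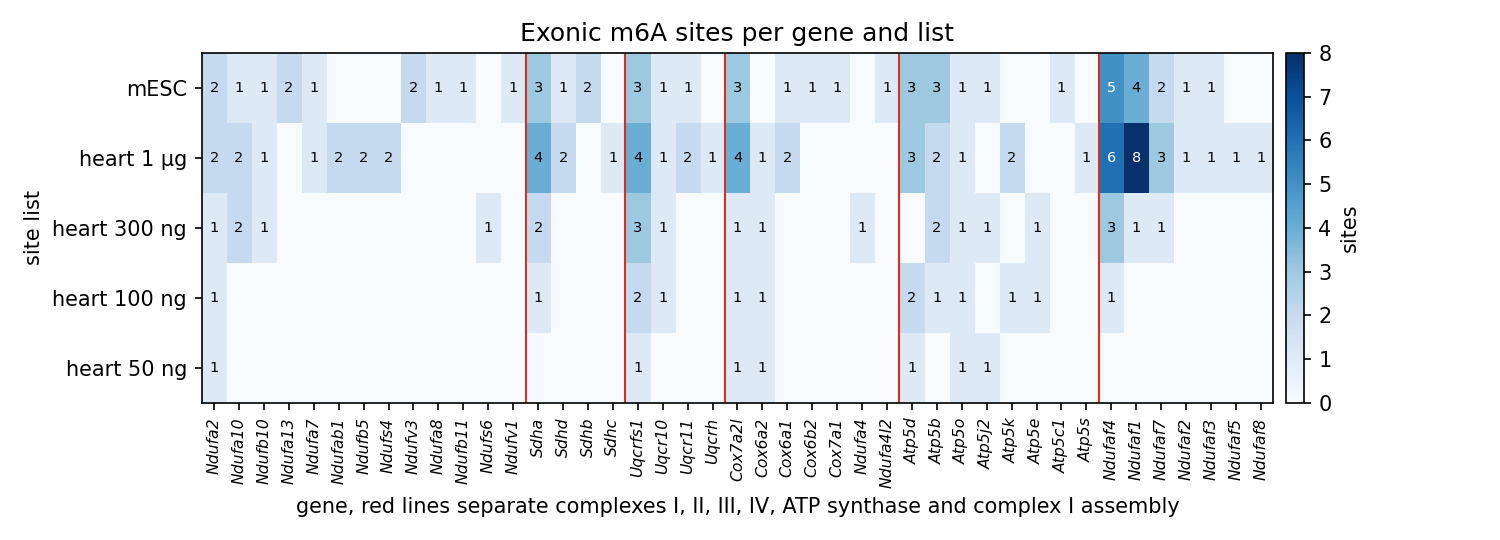
Number of exonic m6A sites (colour and digits) of the respiratory chain genes with a site in any list, except 1 gene that is not shown (horizontal axis), in the mESC list and the 4 heart lists (vertical axis). Ndufaf1 reaches 8 sites in the 1 µg heart list, and Uqcrfs1, Cox7a2l, Cox6a2, Atp5o and Ndufa2 have sites at every heart input.

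Promoters were searched for 3 motifs of factors known to drive respiratory chain genes, in RefSeq windows from 250 nt before to 50 nt after each start (GRCm38.p6), on both strands. By symbol, 75 of the genes were in the table. The NRF-1 motif, spelled by the capitals of the Cox6a1 stretch below, was found in 7 of them (9.33%) and in 1.07% of all 27025 genes. The ETS motif CCGGAAG, bound by GABP, was found in 18 (24.0%) and in 9.93% of all genes, and the YY1 motif AAGATGGCG in 8 (10.7%) and in 1.64%. All genes were taken here whatever their level in mESCs. No share was computed for genes of similar level, so whether the excess is particular to the respiratory chain was not tested. No motif holds another in its letters, and the NRF-1 motif reads the same on both strands. Examples are shown for genes with high levels or with changes described above, with the motif in capitals.

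Cox6a1, NRF-1 (chr5:115349103-115349128, minus strand): ggaacgggGCGCATGCGCgctctcgc
Ndufaf4, NRF-1 (chr4:24897962-24897987, plus strand): agatgtctGCGCATGCGCctgtgcgg
Cox8a, ETS (chr19:7217607-7217629, minus strand): ccgaaataCTTCCGGctcgggcg
Ndufaf1, ETS (chr2:119662838-119662860, minus strand): gaccacaaCCGGAAGcgtggcga
Atp5j2, YY1 (chr5:145191502-145191526, minus strand): aggacttcAAGATGGCGtcactcgg

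The motifs occurred in promoters of genes that rose in the KO (NRF-1 in Ndufaf4, ETS in Ndufaf1) and of genes that fell (ETS in Ndufb7, Uqcrh, Ndufs8 and Sdhb). A match is a description of the letters in these windows, and binding was not measured.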

How the data were processed

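Gene counts, deposited by the authors as unnormalised whole numbers, were obtained as follows: 84-nt single-end reads were mapped to GRCm38.p6 with STAR and counted on the reverse strand with HTSeq 0.12.4 over GENCODE M23. The score deposited by the authors with the mESC sites is the m6Aboost prediction, made from peaks found in at least 2 replicates. The scale of the score column in the heart lists is not stated, so that column serves for ranking alone. Lines that name no gene, which held 36.7% to 42.7% of all counts in a file, were left out.

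KO was tested against WT by the quasi-likelihood test of edgeR 4.0.16 (R 4.3.3) over the 15731 genes that passed filterByExpr, scaled with TMM factors, with Benjamini-Hochberg adjustment and a threshold of 0.01. On simulated counts the test was checked before use. CPM were computed with TMM library sizes. Same-numbered WT and KO libraries deviated together from their group means (correlations 0.122, 0.464 and 0.303). WT replicate 3 with KO replicate 1 had 0.110, and the other differently numbered pairs had negative values. The numbers were taken to pair the libraries, but no label states this, and these values hardly set the pair of replicate 1 apart. The paper names 3 biological replicates of WT and of KO for miCLIP2, and describes the RNA-seq data as matched to these samples. How the replicates were kept apart in culture is not given, and p-values measure the spread between these libraries. Replicates differed by more than sampling noise. Sites were placed on exons of a single gene of GENCODE M21 on the same strand (the authors used a later release; 55154 of 56196 genes matched), and described in the transcript with the longest coding sequence. Sites are compared by position and strand. Shares have Wilson 95% intervals, which cover counting error only.

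The genes, the lists of core subunits, isoform families, assembly factors, regulators and markers, and the tests were chosen with earlier results of these data known. Named genes are the 6 highest and 6 lowest called genes with at least 100 counts on average and ranges that do not overlap, the 6 highest levels per length, core subunits and isoform families, the 12 genes with the most sites in the mESC and 1 µg heart lists, those with sites at 50 or 100 ng, and up to 4 genes of other lists. Alternatives were DESeq2 1.42.0, its size factors, library size only, other filters, an adjusted p of 0.05, the replicate block and leaving out each library. The HEK293T list and the miCLIP2 signal were not used here. Values of 1 gene are not reported here.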

Additional observations from a re-analysis of the deposited data

How the results depend on the processing

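The count of 21 respiratory chain genes called changed in KO became 11 with library size only, 44 with the replicate block and 45 at an adjusted p of 0.05. Leaving out 1 library each gave 12 to 27, with 12 without KO replicate 1 and 12 without KO replicate 2, where fewer libraries entered the fit. DESeq2 called 31, its size factors in edgeR 21, the looser filter 28 and the stricter filter 19. A pair of alternatives was chosen after seeing the data: without genes on chromosome 8 the count was 18, and with only genes in which at least 80% of 84-nt stretches had no other copy it was 20. Ndufaf1, Ndufaf4 and Uqcrfs1 were called higher under every one of these fits, whereas of the 18 genes called lower, 7 were called with library size only. Atp5c1, Cox4i1, Cox4i2, Cox7a2, Ndufa13, Ndufa4, Ndufa5, Sdhb and Uqcrc2 each lost the call with library size only and without KO replicate 2. The median log2 fold change was -0.18 with library size only and -0.32 to -0.22 when a library was left out. The number of genes with a mESC site was 12 with sites at or above the median score, and that with a heart site was 18 in the 300 ng list. Among values of named genes that were not called, those of Atp5e (0.0093), Ndufa10 (0.0012), Ndufs1 (0.014), Ndufs7 (0.055) and Uqcr11 (0.10) turned positive with library size only. When a library was left out, values ranged from -0.26 to 0.035 for Atp5g2 (highest without KO replicate 3), from -0.21 to 0.0098 for Ndufs1 (without WT replicate 3, and 0.0085 without KO replicate 2), from -0.12 to 0.084 for Ndufs7 (without KO replicate 2) and from -0.13 to 0.16 for Uqcr11 (without WT replicate 3, and 0.15 without KO replicate 2). The causes were not tested. Among named genes the replicate block added 16 calls and ended none.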
